A study of Mus musculus with 24 samples.

Results

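The genes described here are 33 genes of microglia among the 49315 genes counted in cultures of primary murine astrocytes. They were chosen by name from known markers of microglia, after earlier results of these libraries had been seen, so their levels and the differences between cultures are given as a description with no test. RNA was sequenced from astrocytes of the cortex of wild type C57BL/6J mouse embryos close to birth, used in the first passage. Cells were given 0.1 Gy or 2 Gy of X-rays or were mock-irradiated (0 Gy) and were harvested 6 h or 24 h later, which gives 6 conditions with 4 libraries each, numbered n1 to n4. All groups share the strain, the genotype and the culture, and each cell isolation combined the litter of 1 dam. As a model, these are cells grown outside the brain and its circulation. They are described by the labels as primary astrocytes, and of 12 astrocyte markers 11 were tested, with only the connexin Gjb6 close to 0 (at most 0.198 RPKM). Libraries held 14742855 to 38194800 counts (median 24829888.5). Levels are given as RPKM, reads scaled to exon length and to library size after TMM normalization, so that they can be compared between genes and between libraries.

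Microglia are the resident macrophages of the brain. They arise from precursors of the yolk sac, depend on the receptor for the growth factors CSF1 and IL-34, survey the tissue and take up dying cells, synapses and debris. They are known to remain in cultures of dissociated cortex next to the astrocytes. In culture and in disease, microglia are known to lower homeostatic genes such as P2ry12 and Tmem119 and to raise genes of phagocytosis and lipid handling.

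Of the 33 genes, 32 had enough reads to be tested, and 1, Siglech, did not. Siglech encodes a lectin of the Siglec family that is often used as a marker of microglia in tissue. It received between 0 and 4 counts per library and 20 counts over all libraries, where 3 counts correspond to 0.0232 to 0.0602 RPKM depending on the library. The other 32 genes were detected in each of the 24 libraries, from 7 counts in the library where Gpr34 was lowest to 128722 counts in the library where Lyz2 was highest. Other macrophages share many of these genes, such as Spi1, Csf1r, Tyrobp and Lyz2, so their detection does not tell microglia from other macrophages.

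The n2 libraries stood apart. In all 6 conditions, each of the 32 genes was lower in n2 than in n1, n3 and n4, beside 12.2% of all 17353 genes tested in the 24 libraries. For none of the 32 did the range of the 6 n2 libraries overlap that of the 18 others, which was not counted over all genes. The summed level of the 33 genes was between 603 and 754 RPKM in the 6 n2 libraries and between 3798 and 6282 RPKM in the 18 other libraries. The ratio of the median of n1, n3 and n4 to n2 was from 6.44 to 8.21 by condition, and from 6.96 to 9.52 without Lyz2. The members took 0.0996% to 0.123% of all counts in n2 and 0.6% to 1.004% in the others. In these bulk samples, fewer microglia and less RNA per microglial cell cannot be told apart.

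**Figure D1:**
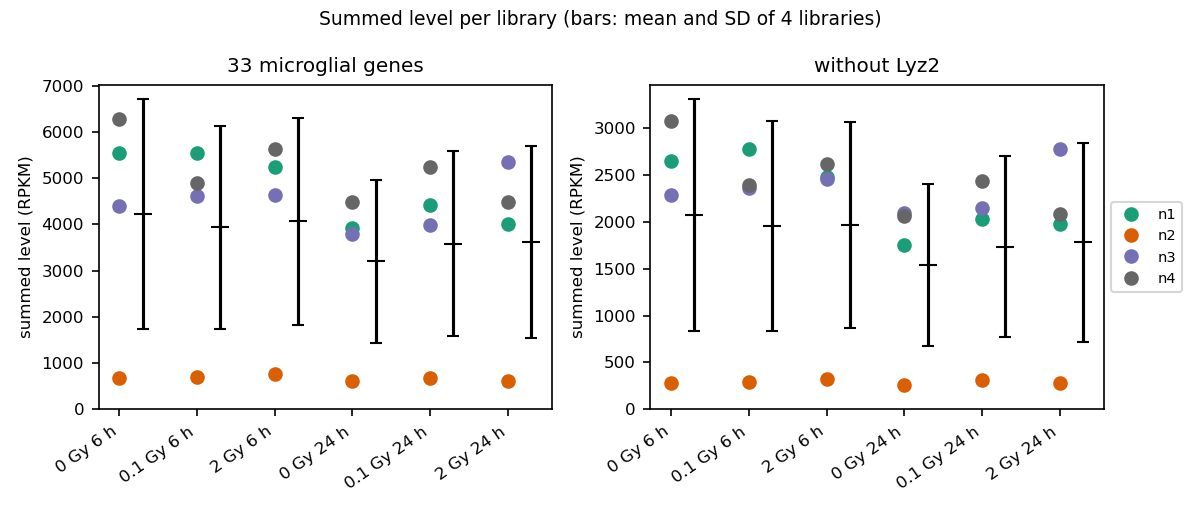
Summed level (RPKM) of the 33 genes, and of the 32 genes without Lyz2, in each library by dose and time, with points for n1 to n4 and bars for the mean and SD of 4 libraries. The n2 libraries lie between 603 and 754 RPKM in the left panel, and all other libraries are at 3798 RPKM or above.

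Single members differed in how far n2 fell short. The median over the 6 conditions of the level in n2, as a percentage of the median of n1, n3 and n4, was 13.6% over the 32 genes. Mrc1, the mannose receptor, was at the low end with 7.01%, next to Fcgr1 (8.02%), the high-affinity receptor for IgG, and Ly86 (8.25%), a partner of a Toll-like receptor homolog. P2ry6, a receptor for UDP that triggers phagocytosis, was at the high end with 27.3%, next to Olfml3 (24.4%), a secreted protein of the matrix, and Cd68 (20.6%), a lysosomal membrane protein. Over all genes tested, the same percentage had a median of 102%. It was under 25% of the others in all 6 conditions for 29 of the 32 members and for 2.5% of all genes.

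Lists of markers of other brain cells had other levels in n2, given as the median over the genes of a list. The 11 tested astrocyte markers had a median of 91.3% in n2, with single genes from 57.4% to 241%. Gfap, the intermediate filament of astrocytes, was at 123% in n2 and between 81.4 and 189 RPKM over the 24 libraries. Neuron markers (13 tested) were at 224% in n2, markers of the oligodendrocyte lineage (10 tested) at 163%, and those of fibroblasts and vessels (11 tested) at 156%. Part of the neuron markers were close to 0 RPKM, and the 6 of at least 0.5 RPKM had a median of 174% in n2. By the summed level of a list, which its most abundant genes set, neuron markers were at 147.5%, the oligodendrocyte lineage at 147%, fibroblasts and vessels at 82.8% and astrocyte markers at 82.5%. Col3a1, a fibrillar collagen, was at 1976% and Mbp, a myelin protein, at 19.7%, both named after their values were seen. Their part in the results was not tested. For bone marrow-derived cells there was little signal. Of the 13 markers of monocytes, granulocytes and lymphocytes, Ly6g was at 0 in all 24 libraries and S100a9 and Cd3e in 23, and the summed level of this list was at most 0.997 RPKM in any library. Genes of border macrophages were mixed. Stab1, a scavenger receptor, reached 71.1 RPKM (13.7% in n2) and Pf4, a chemokine, 142 RPKM (1.27% in n2), whereas Cd163, Lyve1, Mgl2 and Clec10a did not exceed 13 counts in any library.

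**Figure D2:**
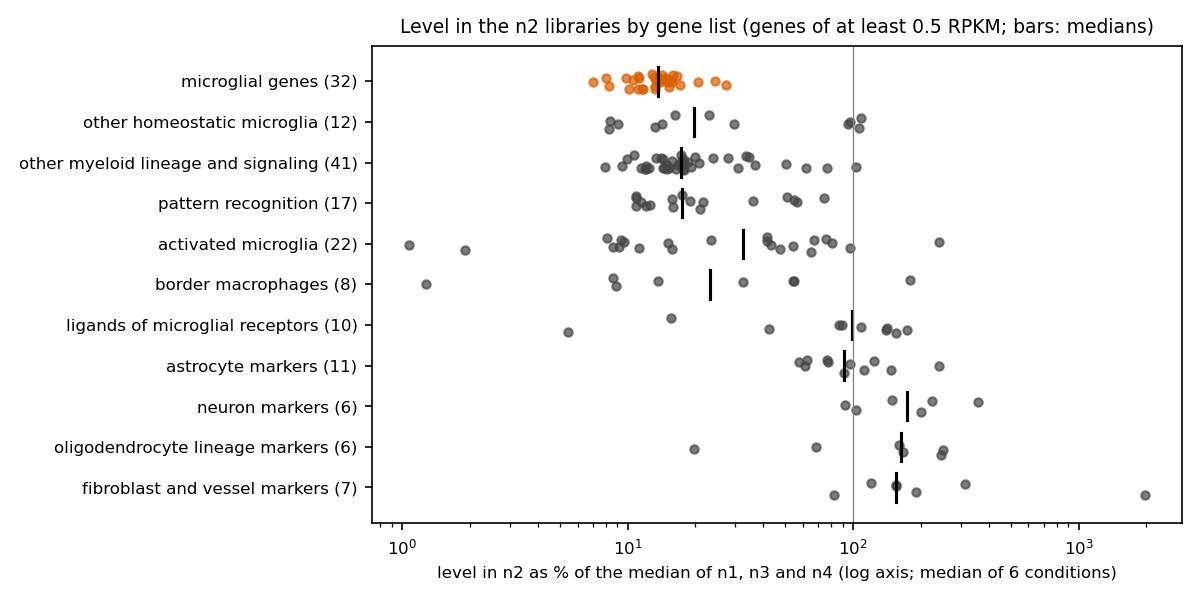
Level in the n2 libraries as a percentage of the median of n1, n3 and n4 (log axis, median of the 6 conditions) for genes of at least 0.5 RPKM, 1 point per gene and a bar at the median of each list. The microglial genes lie between 7.01% and 27.3%, and the medians of the lowest 4 lists, which hold markers of other brain cells, lie between 91.3% and 174%.

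The median levels of the 32 genes ran from 1.01 to 2222 RPKM. Lyz2, the lysozyme of macrophages, had the highest level with a median of 2222 RPKM over the 24 libraries, and made up 54.8% to 58.8% of the summed level in n2 and 44.9% to 55.5% in the others. Because it has a near-identical neighbor, Lyz1, the division of reads between both is uncertain. The 3 chains of complement C1q had medians of 344 RPKM (C1qa), 308 RPKM (C1qb) and 141 RPKM (C1qc). C1q starts the classical complement cascade and tags synapses and debris for uptake. The C1q genes lie next to each other on chromosome 4, C1qb at 136880129 to 136886187, C1qc at 136889804 to 136893065 and C1qa at 136895917 to 136898803 (GRCm38), all on the minus strand. The protease Ctss (274.5 RPKM) of the lysosome stood between C1qb and C1qc, and the pore-forming protein Mpeg1 (140 RPKM) was next to C1qc.

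Among the adaptors that carry the ITAM signaling motif, Tyrobp had a median of 137 RPKM and Fcer1g of 99.8 RPKM. Trem2, the lipid receptor that signals through Tyrobp, was lower with 10.2 RPKM. Of the receptors that keep microglia alive and in place, Csf1r had 102 RPKM and the fractalkine receptor Cx3cr1 had 55.4 RPKM. The homeostatic genes were graded, from Tmem119 (28.9 RPKM), P2ry6 (16.6 RPKM) and Olfml3 (15 RPKM) to P2ry12 (4.5 RPKM), the ADP receptor that steers microglial processes, and Gpr34 (1.01 RPKM), a lysophospholipid receptor. The leukocyte phosphatase Ptprc (CD45) had 5 RPKM, the low-affinity inhibitory IgG receptor Fcgr2b 2.31 RPKM and Mrc1 2.18 RPKM. Neighbors in this order overlapped in their ranges over the libraries, except that Siglech (at most 0.0483 RPKM) stayed below Gpr34 (at least 0.118 RPKM). Lyz2 in each n1, n3 and n4 library (1707 RPKM or more) exceeded C1qa in every library (577 RPKM or less).

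The lineage transcription factors were at moderate levels. Spi1 encodes PU.1, the factor that sets the myeloid fate, and lies on chromosome 2 (91082390 to 91115756). It had a median of 21 RPKM. Irf8, which acts together with PU.1, had 8.18 RPKM. Its gene on chromosome 8 overlaps Gm20388 on the same strand, so reads there are uncertain.

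**Figure D3:**
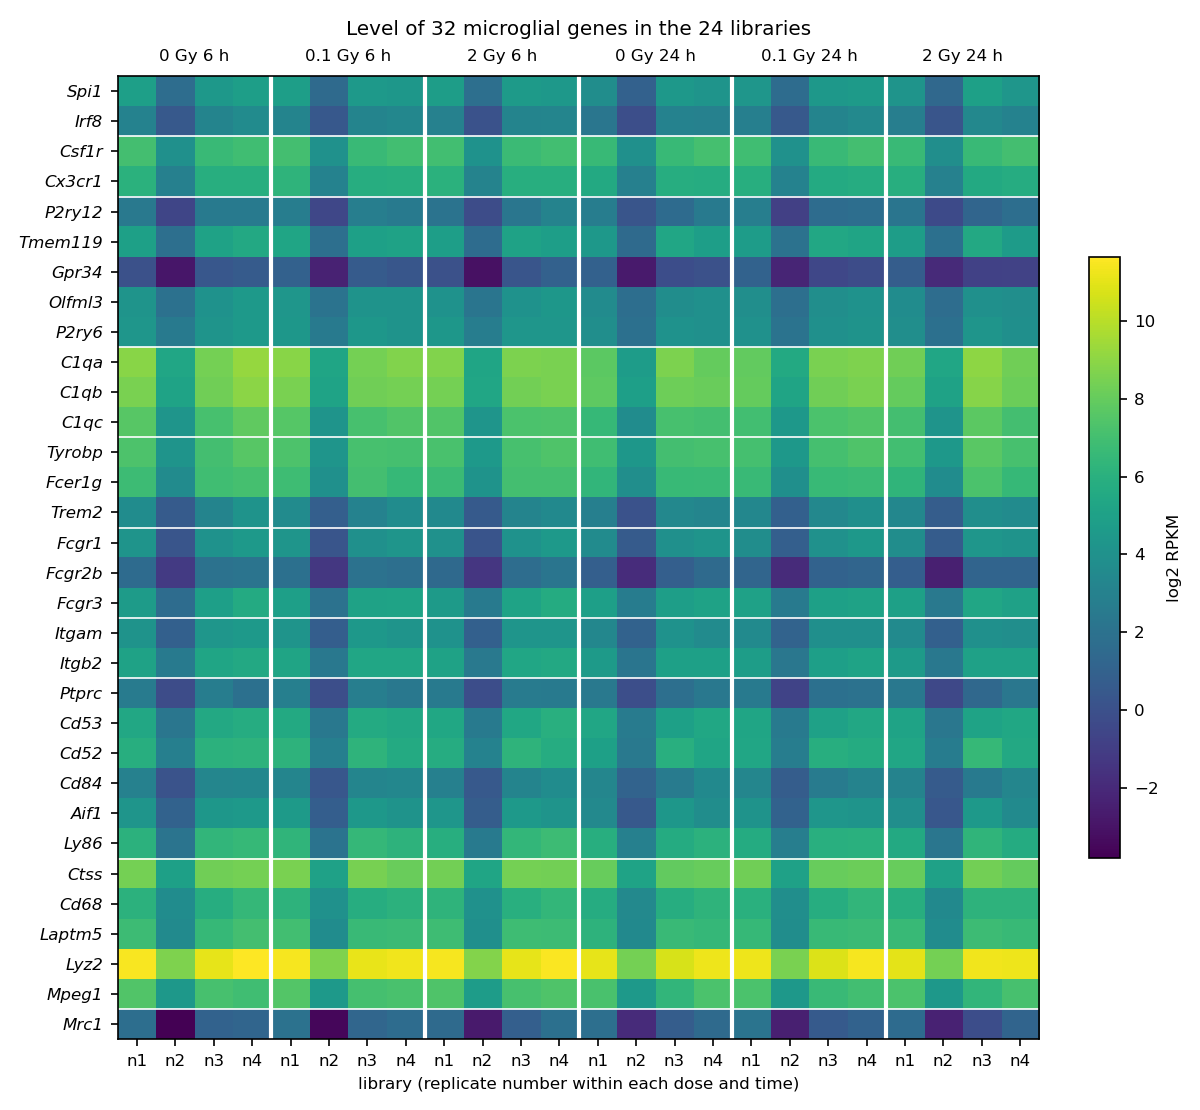
Level (log2 RPKM, color) of the 32 detected genes in the 24 libraries, with genes ordered by role and libraries by time, dose and n number. The n2 column is darker than its neighbors in every condition, and its lowest levels are 339.5 RPKM for Lyz2 and 0.0715 RPKM for Mrc1.

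PU.1 binds a purine-rich core known as the PU box, and the letters GAGGAA were searched on both strands in the 250 bases upstream of the start of each gene. RefSeq promoters of GRCm38.p6 were matched for 24 of the 33 genes. The letters occurred in 14 of their 27 promoters (51.9%), that is in 13 of 24 genes, and in 7639 of all 32851 promoters (23.3%). To show where the letters lie, the upstream stretches of 4 genes are printed, the ones of highest level that hold the letters. C1qc and Laptm5 were passed over, a choice made after the stretches were seen, because their stretch enters an exon of the deposited gene models. The stretches are in lower case with the letters in capitals (TTCCTC would mark the other strand) and written 5′ to 3′ toward the start. A match of letters is a description and not a binding site.
C1qb (chr4:136886201-136886450, minus strand): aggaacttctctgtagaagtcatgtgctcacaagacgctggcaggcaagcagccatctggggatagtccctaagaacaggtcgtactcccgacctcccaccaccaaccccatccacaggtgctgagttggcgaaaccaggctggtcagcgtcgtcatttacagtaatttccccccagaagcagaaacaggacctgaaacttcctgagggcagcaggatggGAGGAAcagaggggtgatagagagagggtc
Ctss (chr3:95526536-95526785, plus strand): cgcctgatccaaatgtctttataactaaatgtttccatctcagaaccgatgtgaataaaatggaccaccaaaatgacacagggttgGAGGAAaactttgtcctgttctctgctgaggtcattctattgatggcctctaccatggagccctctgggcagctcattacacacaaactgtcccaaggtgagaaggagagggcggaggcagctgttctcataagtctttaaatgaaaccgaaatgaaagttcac
Cd68 (chr11:69666171-69666420, minus strand): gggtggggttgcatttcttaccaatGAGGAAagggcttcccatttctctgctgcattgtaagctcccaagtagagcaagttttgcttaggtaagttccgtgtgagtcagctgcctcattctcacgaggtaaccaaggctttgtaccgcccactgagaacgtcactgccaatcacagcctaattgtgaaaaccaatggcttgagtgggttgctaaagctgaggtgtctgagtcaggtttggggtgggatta
Cd53 (chr3:106790150-106790399, minus strand): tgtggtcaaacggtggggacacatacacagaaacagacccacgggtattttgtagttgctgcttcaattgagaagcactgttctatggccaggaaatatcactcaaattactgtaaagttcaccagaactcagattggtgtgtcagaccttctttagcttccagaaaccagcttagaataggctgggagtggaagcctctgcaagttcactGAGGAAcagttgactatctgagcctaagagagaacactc
In C1qb and Cd53, the letters began 30 and 39 bases before the start, in Ctss 164 bases and in Cd68 225 bases before it. Cd53 is a tetraspanin of leukocytes. In the promoter tested for Lyz2, Mpeg1, Fcer1g and Cx3cr1 the letters did not occur, which says nothing about the factor elsewhere.

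To determine whether X-rays changed the microglial genes, each dose was compared with mock-irradiated cells at the same time within pairs of equal n number. The fit covered all genes that passed the filter on low counts, with a gene called at an adjusted p under 0.05 (edgeR's quasi-likelihood test with the replicate number as a block, Benjamini-Hochberg adjustment over all genes tested). At 6 h, none of the 32 members was called after 0.1 Gy or after 2 Gy. The share of all genes called was 0% in both directions at both doses (0 of 16020 and 0 of 15994). At an unadjusted p under 0.05, there were 2 members after 0.1 Gy, Mrc1 (log2 fold change 0.31 ± 0.09, SE) and Ptprc (0.21 ± 0.08), and 0 members after 2 Gy, beside 636 and 1101 of all genes. DESeq2 called 0 members at either dose, and 0 and 66 of all genes. The median log2 fold change of the members was -0.02 after 0.1 Gy and 0.02 after 2 Gy, beside -0.0027 and 0.0022 over all genes tested.

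At 6 h, the pairs differed in sign. After 0.1 Gy, the median change of the members was 0.12 in n1, 0.05 in n2, 0.08 in n3 and -0.35 in n4 (log2). The summed level in n4 after 0.1 Gy was 0.778 times that at 0 Gy. After 2 Gy, the ratio of the summed level to 0 Gy ranged from 0.896 in n4 to 1.12 in n2. The pairs thus moved in both directions.

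At 24 h after 0.1 Gy, 3 members were higher and 0 lower than at 0 Gy, and 24 of the 32 had a positive log2 fold change. Over all genes, 2.34% were called higher and 4.5% lower (379 and 728 of 16183). The median log2 fold change was 0.09 over the members and -0.0033 over all genes. The 3 genes were Trem2, Irf8 and C1qc.

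In the 0 Gy libraries at 24 h, the level of Trem2 was 7.13 RPKM in n1, 1.07 in n2, 10.5 in n3 and 9.52 in n4. After 0.1 Gy, it was 10.1, 1.93, 10.6 and 14.6 RPKM in the same order. The groups overlapped, and the change within pairs was positive in 4 of 4 pairs, but close to 0 in n3 (0.0083). The log2 fold change was 0.45 ± 0.13 (SE, adjusted p = 0.0463, edgeR).

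C1qc had 93.5, 13.2, 141 and 129 RPKM in n1 to n4 at 0 Gy, and 125, 21.9, 155 and 177 RPKM after 0.1 Gy. It was higher in 4 of 4 pairs, with a log2 fold change of 0.42 ± 0.1 (SE, adjusted p = 0.0348, edgeR). C1qa changed by 0.39 ± 0.13 (adjusted p = 0.0707, edgeR) and C1qb by 0.23 ± 0.09 (adjusted p = 0.127, edgeR), neither of which passed the test. All 3 chains of C1q had a positive value.

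Irf8 had 4.78, 0.938, 8.18 and 7.98 RPKM in n1 to n4 at 0 Gy, and 7.38, 1.44, 8.87 and 11 RPKM after 0.1 Gy. Its log2 fold change was 0.43 ± 0.11 (SE, adjusted p = 0.0375, edgeR), positive in 4 of 4 pairs. Spi1 did not pass the test (0.36 ± 0.12, adjusted p = 0.0759, edgeR). Without n2, none of the 3 calls was kept (adjusted p from 0.156 to 0.202, edgeR), and 0 members were called without n4 and 2 without n1. Over all genes, 1176 of 16371 were called without n1, 21 of 16155 without n2 and 16 of 16212 without n4. Without n3, 10 members were called, all higher, and the 3 were among them, beside 3728 of all 16060 genes.

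At 24 h after 2 Gy, 3 members were higher, 1 was lower and 28 did not pass the test. Over all genes, 6.53% were called higher and 6.69% lower (1037 and 1063 of 15892), and the median log2 fold change was 0.08 over the members and 0.0045 over all genes. The median of the members was 0.01 without n3 and 0.04 with a correction for GC content and length. The genes called were Trem2, C1qa and Spi1 (higher) and P2ry12 (lower). Both doses were compared with the same 4 control libraries, so the genes that both comparisons call are not independent.

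Trem2 had 10.3, 1.71, 14.4 and 12.6 RPKM in n1 to n4 after 2 Gy, above its 0 Gy value in 4 of 4 pairs. Its log2 fold change of 0.50 ± 0.09 (SE, adjusted p = 0.0158, edgeR) had the smallest adjusted p of the members. The changes within pairs were between 0.4 and 0.67, a narrower span than after 0.1 Gy.

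C1qa had 212, 26.8, 388 and 255 RPKM in n1 to n4 at 0 Gy, and 315, 40.3, 528 and 318 RPKM after 2 Gy. The groups overlapped, and all 4 pairs were higher by 0.32 to 0.59 on the log2 scale. The log2 fold change was 0.48 ± 0.09 (SE, adjusted p = 0.0167, edgeR). C1qc (0.39 ± 0.11, adjusted p = 0.0507, edgeR) and C1qb (0.25 ± 0.1, adjusted p = 0.128, edgeR) did not pass the test.

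Spi1 had 13.7, 1.95, 21.8 and 18.4 RPKM in n1 to n4 at 0 Gy, and 18.4, 2.67, 31.3 and 19.6 RPKM after 2 Gy. It was higher in 4 of 4 pairs, by as little as 0.089 in n4, with a log2 fold change of 0.37 ± 0.1 (SE, adjusted p = 0.0462, edgeR). Its partner Irf8 had a value of 0.32 ± 0.11 (adjusted p = 0.0724, edgeR) that did not pass.

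P2ry12 was the only member called lower. It had 6.56, 1.21, 3.03 and 5.6 RPKM in n1 to n4 at 0 Gy, and 4.68, 0.789, 2.39 and 3.49 RPKM after 2 Gy. All 4 pairs were lower, and P2ry12 fell by 0.52 ± 0.12 on the log2 scale (SE, adjusted p = 0.0287, edgeR). With all 24 libraries in 1 fit, 5 members were called higher and 0 lower, so this call was lost, beside 3416 of all 17353 genes called. P2ry12 lies inside the gene Med12l on the other strand (chromosome 3, 59216272 to 59262871), and whether the counts are stranded is not given in the sources used here, so reads of both cannot be told apart. Other homeostatic genes gave no such call, Tmem119 with 0.19 ± 0.11, Gpr34 with -0.37 ± 0.26 and Csf1r with -0.014 ± 0.085 (log2 fold change ± SE). Over the 32 members, 4 were lower and 10 higher in 4 of 4 pairs. Those lower in 4 of 4 pairs without a call were Mrc1 (-0.46 ± 0.15), Cd84 (-0.26 ± 0.09) and Ptprc (-0.24 ± 0.1).

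**Figure D4:**
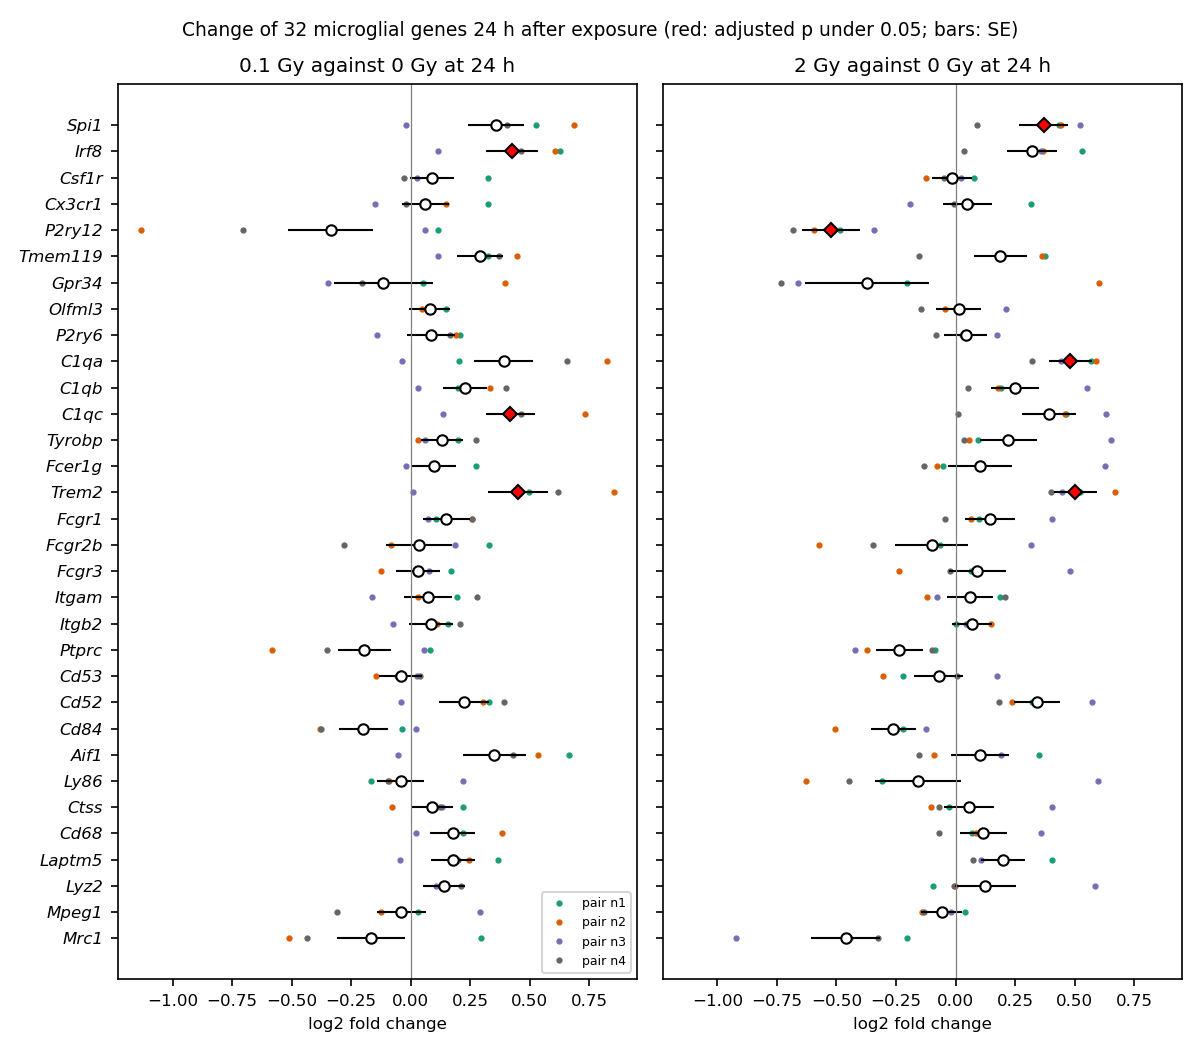
Log2 fold change of the 32 tested genes 24 h after 0.1 Gy and 2 Gy, with open circles or red diamonds (adjusted p under 0.05) for the fitted value, bars for its SE and small dots for the 4 pairs. After 2 Gy, P2ry12 lies at -0.52 and Trem2 at 0.5.

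The calls after 2 Gy changed with the pairs in the fit. Without n1, without n2 or without n4, 0 members were called, with adjusted p from 0.121 to 0.19 for the 4 genes without n2 (edgeR). The log2 fold changes with 1 pair left out stayed between 0.46 and 0.55 for Trem2, 0.44 and 0.55 for C1qa, 0.30 and 0.48 for Spi1 and -0.58 and -0.45 for P2ry12. Without n3, 10 members were called, 7 higher and 3 lower, with the 4 among them, beside 5291 of all 15986 genes. Over all genes, 143 of 16026 were called without n1, 69 of 15956 without n2 and 245 of 15889 without n4. The n3 pair was the one in which the summed level moved most, by a ratio of 1.41 after 2 Gy, beside 1 to 1.03 in the other pairs. After 0.1 Gy, the ratio was 1.13 in n1, 1.14 in n2, 1.05 in n3 and 1.17 in n4, and the median change of the members was positive in 4 of 4 pairs (0.02 to 0.21, log2). After 2 Gy, that median was 0.07 in n1, 0.02 in n2, 0.26 in n3 and -0.05 in n4. Without the replicate block, 0 members were called at either dose, with adjusted p from 0.94 to 0.977 for the 7 calls of both doses (edgeR), and likewise 0 of all 16183 and 15892 genes.

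The log2 fold changes of the members went with the GC content of their exons. Across the 32 members, which are not independent replicates and share their libraries, the log2 fold change had a correlation with GC content of r = 0.839 after 0.1 Gy and r = 0.848 after 2 Gy. At 6 h, it was r = -0.814 and r = -0.562, so the sign was the opposite. Over all genes with a GC value, the correlations were 0.605 and 0.58 at 24 h and -0.357 and -0.383 at 6 h. The 6 members with GC content between 36.8% and 41.6%, Gpr34, P2ry12, Cd53, Ptprc, Mrc1 and Cd84, had negative values after both doses at 24 h. C1qa (59.5%), Tmem119 (59.5%), C1qb (57.4%), C1qc (56.7%), Spi1 (56.2%) and Irf8 (55.8%) stood at the other end. Trem2, with the highest log2 fold change after both doses, had a GC content of 53.4%.

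When GC content and length were corrected for in each library, the correlations over the members were -0.0913 and 0.0699, and 1 of the 32 members was called after each dose, beside 239 of 16145 genes after 0.1 Gy and 452 of 15855 after 2 Gy. After 0.1 Gy it was Irf8, with a log2 fold change of 0.35 (adjusted p = 0.0357, edgeR). After 2 Gy it was Trem2, with 0.44 (adjusted p = 0.0212, edgeR). Trem2 after 0.1 Gy was at 0.38 (adjusted p = 0.0524, edgeR), beside 0.45 without the correction. C1qa moved from 0.48 to 0.1 after 2 Gy (adjusted p = 0.452, edgeR), C1qc from 0.42 to 0.18 after 0.1 Gy (adjusted p = 0.197, edgeR) and Spi1 from 0.37 to 0.14 after 2 Gy (adjusted p = 0.387, edgeR). P2ry12 stayed negative with -0.26 (adjusted p = 0.255, edgeR).

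**Figure D5:**
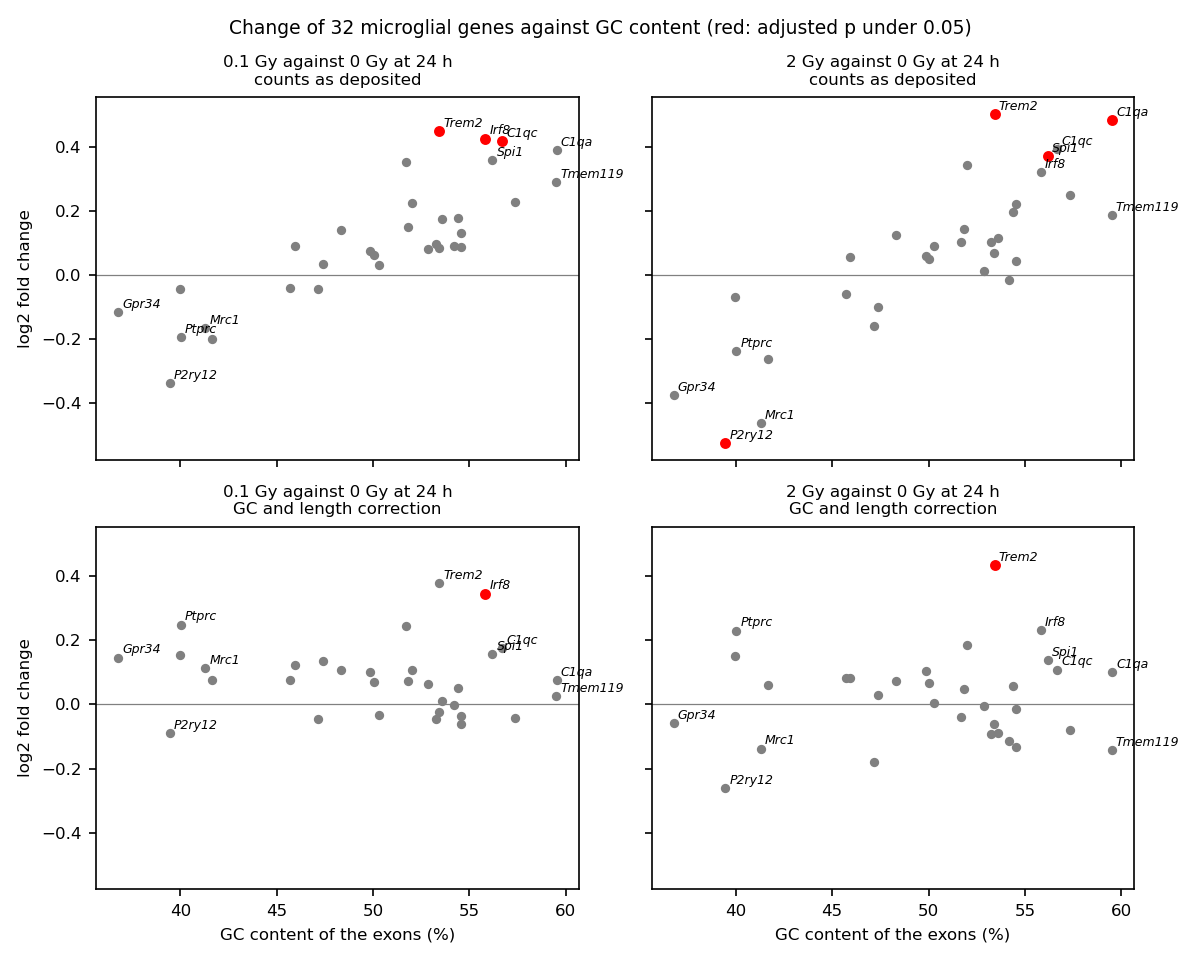
Log2 fold change at 24 h against the GC content of the exons (%) for the 32 tested genes, after 0.1 Gy (left) and 2 Gy (right), from the counts as deposited (top) and with a correction for GC content and length (bottom). Red points have an adjusted p under 0.05, 3 and 4 genes in the top row and 1 in each panel of the bottom row.

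Setting 2 Gy against 0.1 Gy at 24 h asked whether the doses differed from each other. None of the 32 members was called, at a share of 0% of all genes in both directions (0 of 16002), and 0 members were at an unadjusted p under 0.05. DESeq2 called 0 members and 109 of all genes, and 790 genes were at an unadjusted p under 0.05. The fitted values ranged from -0.3 for Mrc1 to 0.11 for Cd52 (log2). The difference for Trem2 was 0.04 ± 0.12 and that for P2ry12 was -0.18 ± 0.18 (log2 fold change ± SE), so the calls at 1 dose and not at the other were not shown to differ.

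The interaction of dose and time tests whether the change within pairs was larger at 24 h than at 6 h. For 2 Gy, it was positive for Trem2 (0.75 ± 0.15 on the log2 scale, SE, adjusted p = 0.0335), C1qa (0.66 ± 0.16, adjusted p = 0.0405) and Irf8 (0.55 ± 0.15, adjusted p = 0.0491) in edgeR's fit, and 0 members were called negative. Over all genes, 3.55% were positive and 3.23% negative. For 0.1 Gy, it was positive for Trem2 (0.6 ± 0.17, adjusted p = 0.0384), C1qc (0.57 ± 0.14, adjusted p = 0.0285) and Irf8 (0.51 ± 0.14, adjusted p = 0.0382) in edgeR's fit, with 4.14% of all genes positive and 4.72% negative. At 6 h, Trem2 had values of -0.24 ± 0.11 after 2 Gy and -0.15 ± 0.09 after 0.1 Gy. Without n1, without n2 or without n4, 0 members were called for either dose, and without n3 there were 8 for 2 Gy and 9 for 0.1 Gy. Over all genes, 0 to 138 were called for 2 Gy and 2 for 0.1 Gy when n1, n2 or n4 was left out, and 3951 of 16871 and 3457 of 17073 without n3. With the correction for GC content and length, Trem2 alone was called for 2 Gy (0.66, adjusted p = 0.0379, edgeR) and 0 members for 0.1 Gy, beside 285 of 16821 and 128 of 16996 genes. The interaction of Trem2 for 0.1 Gy was then 0.52 (adjusted p = 0.0925, edgeR), and that of Irf8 was 0.41 for 2 Gy and 0.40 for 0.1 Gy. Those of C1qa for 2 Gy and of C1qc for 0.1 Gy were 0.14 and 0.24.

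Without irradiation, the members had lower values at 24 h than at 6 h without a call. Of the 32 genes, 30 had a negative log2 fold change, with a median of -0.36 beside -0.017 over all genes. Medians of other markers were -0.63 (neurons), -0.44 (fibroblasts and vessels), -0.13 (astrocytes) and 0.0015 (oligodendrocyte lineage). The SE of the members was large, such as 0.66 for Lyz2 (-0.4) and 0.81 for C1qa (-0.74), and the unpaired fit includes the gap between n2 and the other cultures. The shares of all genes called were 3.24% higher and 3.46% lower, and 0 members were at an unadjusted p under 0.05. DESeq2 called 0 members and 1999 of all genes. The summed level was 5551, 676, 4405 and 6282 RPKM in n1 to n4 at 6 h and 3926, 603, 3798 and 4477 RPKM at 24 h, so it was lower at 24 h under each number. Deviations of equal-numbered libraries across time correlated with 0.41 for n1, 0.825 for n2, 0.0623 for n3 and 0.518 for n4, and the numbers were not used as pairs here because n3 was close to 0. With the number as a block, 4 members were called lower (Fcgr2b, Irf8, Cd52 and C1qc), beside 2428 of all 15887 genes called.

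Genes of microglia and of their partners outside the 33 were taken from lists written by hand with earlier results of these data known. After 2 Gy at 24 h, the list of pattern recognition receptors had 1 gene higher and 4 lower of 17 tested. For this and the lists that follow, the share over all genes at 24 h was 2.34% higher and 4.5% lower after 0.1 Gy, and 6.53% higher and 6.69% lower after 2 Gy. The 4 were Toll-like receptors, which sense nucleic acids or bacterial lipids, Tlr8 (-0.65 ± 0.14), Tlr4 (-0.46 ± 0.11), Tlr3 (-0.41 ± 0.09) and Tlr7 (-0.39 ± 0.09), and the gene that rose was Cd14 (0.39 ± 0.1), a coreceptor for lipopolysaccharide (log2 fold change ± SE). This list had a median GC content of 43.3%, beside 51.8% for the members. After 0.1 Gy at 24 h, 0 were higher and 2 lower, Tlr4 (-0.5 ± 0.12) and Tlr3 (-0.43 ± 0.11).

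Of 41 other genes of the myeloid lineage, 2 were higher and 2 lower after 2 Gy, and 2 higher and 0 lower after 0.1 Gy, both at 24 h. Cyba, a subunit of the NADPH oxidase, rose after both doses (0.63 ± 0.15 after 0.1 Gy and 0.66 ± 0.11 after 2 Gy), and Mef2c, a transcription factor, fell by 0.49 ± 0.11 on the log2 scale after 2 Gy. The level of Mef2c in n2 was 103% of the other cultures and that of Tlr3 was 74.2%, unlike the members. Among 23 tested genes of activated microglia, Apoe, the lipid carrier that astrocytes also make, rose by 0.66 ± 0.12 after 0.1 Gy and 0.76 ± 0.11 after 2 Gy (log2, SE). The GC content of Cyba (58.8%) and Apoe (60%) was at the high end. Cd63, a tetraspanin of endosomes, rose after 0.1 Gy (0.38 ± 0.11). Of the 12 tested other homeostatic genes 1, Susd3, was higher after 2 Gy (0.59 ± 0.16), and of the 8 tested genes of border macrophages 0 passed the test after either dose. Markers of other cells were called at 24 h as well. Of 11 astrocyte markers, 0 were called after 0.1 Gy and 2 were higher after 2 Gy (Aldh1l1 and Gfap). Of neuron markers, 1 was higher (Syp) and 1 lower (Map2) of 9 after 0.1 Gy, and 1 higher (Syp) of 8 after 2 Gy. Of markers of the oligodendrocyte lineage, 2 were higher of 10 after 0.1 Gy (Olig1 and Cnp) and 1 of 9 after 2 Gy (Cnp), and of those of fibroblasts and vessels 0 after either dose. The part of these cells in the changes of the members was not tested.

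Ligands for the receptors of microglia were present in the cultures. Csf1 had a median of 123.5 RPKM over the 24 libraries and was higher in n2 (154.5% of the others), whereas Il34, the other ligand of Csf1r, had 3.14 RPKM. Cx3cl1 (fractalkine) had 39.3 RPKM and was at 141% in n2. The complement components C3 (187 RPKM) and C4b (11.6 RPKM) were at 5.44% and 15.6% in n2. Of 10 ligands tested, Gas6, a bridge between dying cells and the receptors Axl and Mertk, rose by 0.33 ± 0.09 after 0.1 Gy and by 0.63 ± 0.09 after 2 Gy at 24 h (log2, SE), and C4b rose by 0.39 ± 0.09 after 2 Gy. The GC content of Gas6 was 56.6%. Csf1 had values of -0.078 ± 0.099 and -0.091 ± 0.096, and neither passed the test.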

How the data were processed

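RNA of 24 samples (3 doses, 2 times, 4 biological repeats) was sequenced after poly(A) selection in 1 run. The deposited values are whole-number counts of reads per gene, which the authors made on the mouse build mm10; the aligner, the counter and the use of strand are not given in the sources used here. The total count per library was 14742855 to 38194800, which limits the precision of weakly expressed genes. No pair of libraries of a group was alike within sampling noise (lowest chi-square per degree of freedom 25.9).

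From these counts, genes were kept by edgeR's filterByExpr given the groups and tested in R 4.3.3 with edgeR 4.0.16 (TMM, quasi-likelihood test, Benjamini-Hochberg adjustment over all genes tested, threshold 0.05). Doses were compared at each time with the replicate number as a block, and the time points without it. Libraries of equal number and time deviated together (correlation 0.54 to 0.927), whereas across time the lowest correlation was 0.0623. Levels are RPKM with TMM factors and the deposited exon lengths. Values are log2 fold changes with their SE. In fits with the replicate block, p-values measure the spread of the changes within pairs, and without the block the spread between libraries.

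The members and all lists were chosen with earlier results of these data known. Every member could be named with its values. Of each other list, genes called in a dose comparison (at most 5 per list and comparison) and the 2 of highest level could be named, and all ligands. Outside this rule, Col3a1, Mbp, Gjb6, Cd163, Lyve1, Mgl2, Clec10a, Ly6g, S100a9 and Cd3e were named after their values were seen. Levels were ranked by RPKM. Alternatives were DESeq2 1.42.0 (test and size factors), library size alone, other filters, no or an added replicate block, all 24 libraries in 1 fit, a correction for GC content and length (splines with 5 degrees of freedom), a minimum log2 fold change of 1 and each replicate left out. The filter given the design matrix was run first and is reported as an alternative added after seeing the data. The tests were run on simulated data beforehand.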

Additional observations from a re-analysis of the deposited data

Results flagged for a closer look

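With 4 libraries per condition, the gap of the farthest library to its neighbor was compared with Dixon's 95% critical value, which chance passes in about 1 of 20 groups. It was passed by 4 members at 6 h after 0 Gy, 8 after 0.1 Gy and 10 after 2 Gy, and by 3, 7 and 2 members at 24 h in the same order. These counts describe the gap of n2 given above and were not made over all genes. In 31 of these 34 cases the outlying library was n2. The remaining cases were Siglech at 0 Gy 6 h, 0.1 Gy 6 h and 2 Gy 24 h, where 1 library held 1 count and the others 0. The summed level of the members did not pass in any condition, with a gap of 0.665 to 0.825 of the range.

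The change within pairs differed between 24 h and 6 h for members that passed the interaction test (edgeR's quasi-likelihood test). For 2 Gy, the difference of the log2 fold changes was 0.55 for Irf8, 0.66 for C1qa and 0.75 for Trem2. For 0.1 Gy, it was 0.51 for Irf8, 0.57 for C1qc and 0.60 for Trem2. With the correction for GC content and length, only Trem2 for 2 Gy (0.66) passed. For 2 Gy, Irf8 was then at 0.41 and C1qa at 0.14. For 0.1 Gy, Trem2 was at 0.52, Irf8 at 0.40 and C1qc at 0.24.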

How the results depend on the processing

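The counts of members called were 3 (0.1 Gy at 24 h), 4 (2 Gy at 24 h), 3 (interaction of 2 Gy and time) and 3 (interaction of 0.1 Gy and time). Without the replicate block, all were 0. They were also 0 with a minimum log2 fold change of 1, which no member reached in these comparisons (at most 0.75, Trem2 in the interaction of 2 Gy and time). The replicate block gave 4 members lower at 24 h than at 6 h in mock-irradiated cells, in place of 0. With the correction for GC content and length they were 1, 1, 1 and 0, and without a filter on low counts 7, 7, 5 and 7. Over all genes at 24 h, the correction gave 239 of 16145 (0.1 Gy) and 452 of 15855 (2 Gy), and no filter 2313 of 30076 and 3060 of 29840, with 2685 of 32056 and 2442 of 32269 in the interactions. In the 0.1 Gy comparison at 24 h and its interaction, all 24 libraries in 1 fit gave 0 and 0, DESeq2 6 and 5, and library size alone 8 and 5, with a median of 0.18 of the members at 24 h, where the median of all genes moved from -0.0033 to 0.09. Over all genes, DESeq2 called 1766 of 30076 and 2127 of 32269, library size alone 1803 of 16183 and 1796 of 17040, and 1 fit of all libraries 0 of 17353 in both. At least 10 counts in every library gave 5 members at 24 h after 0.1 Gy, beside 1553 of 14386 genes (1107 of 16183 with the filter used). Leaving out 1 replicate gave 0 to 10, 0 to 10, 0 to 8 and 0 to 9, the highest without n3 each time. Over all genes at 24 h, 3728 were called after 0.1 Gy and 5291 after 2 Gy without n3, but 21 and 69 without n2. The filter added after seeing the data gave 3, 4, 3 and 3. At 6 h and between the doses, 0 members were called under every alternative. The cause of these shifts was not tested. All 13 called values kept their sign in all alternatives. Siglech could not be tested at this depth.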

Other observations

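Among 11621 genes outside the members, the log2 levels of Fcrls followed the mean of the members most closely over the 24 libraries (r = 0.998), followed by Btk, Lrmp, Sash3, Rab3il1, Plcg2, Nfam1, Adgre1, Ms4a6d and Ptpn6 (r = 0.996 to 0.993). These values are a description, since n2 is low in all 6 conditions and the libraries are not independent points. Their level in n2 was 8.87% (Ms4a6d) to 27.8% (Plcg2) of the others. Adgre1 encodes F4/80, a surface marker of macrophages, and had a median of 90.2 RPKM. Within the members, the correlation with the mean was lowest for Gpr34 (0.914) and highest for Ctss (0.997).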
